A study of Mus musculus with 6 samples.

Results

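Zinc transporters of the Slc30 and Slc39 families were taken as the rows of the deposited expression table whose gene symbol starts with Slc30 or Slc39. This rule found 4 genes among 1228, namely Slc30a1, Slc39a2, Slc39a7 and Slc39a14. The mouse families hold 24 named genes, 10 in Slc30 and 14 in Slc39, and the other 20 are not analysed here. RNA was sequenced from Bv2, an immortalised mouse microglial cell line labelled wild type, in 3 control libraries and 3 libraries from cells put through deprivation of oxygen and glucose with reperfusion (OGD/R), a culture model of ischemia. OGD/R cells spent 30 min in nitrogen, then 2 h without glucose or serum at 1% oxygen, and then 24 h in standard medium with serum. The treatment text, attached to control and OGD/R samples alike, also mentions an infection 72 h before, and does not say which cells received it or what was introduced. All samples come from 1 cell line, and nothing in the labels calls the replicates separate cultures; p-values then reflect the spread among these libraries, which may be technical.

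Zinc is held at very low free concentration in the cytosol, and these families set it from opposite sides. Slc30 proteins (ZnT) carry zinc out of the cytosol, across the plasma membrane or into organelles, and Slc39 proteins (ZIP) carry it into the cytosol from outside or from organelles. Metallothioneins bind what is in the cytosol, and the zinc-sensing transcription factor Mtf1 drives metallothionein genes and Slc30a1 when zinc rises. In brain ischemia zinc is released from neurons, and microglia take it up.

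The values are FPKM (fragment counts divided by exon length and library size), so levels of different genes can be compared per length. The table lists genes that differ about 2-fold or more between these same libraries. The sources used here do not give the rule. Of its 1228 genes, 623 had the lower mean in OGD/R. Genes with a mean of at least 1 FPKM over the 6 libraries were tested with limma on log2(FPKM + 1). Of 852 tested genes, 97.3% passed an adjusted p of 0.05, and 50.7% passed with the lower value in OGD/R. In 46.5% of the table, the 3 OGD/R values all lay below the 3 control values. A call of a single gene therefore says little here. A table picked this way also favours large changes and groups that lie apart. The size, spread and proportions of the zinc transporters are therefore given as description. The steps between low FPKM values gave 7627000 to 8665000 counted units per library. Of 15 microglia and macrophage markers, 2 are in the table, Cx3cr1 and P2ry12, both higher in OGD/R. The other 13 are not analysed here, so the labelled cell type could not be checked.

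All 4 zinc transporters had the lower mean in OGD/R, and in each of them the groups did not overlap. Groups did not overlap, in either direction, in 94.9% of the 1228 genes of the table, so this does not set the zinc transporters apart. Of the 4 zinc transporters, 3 passed the expression minimum, and all 3 fell. The zinc exporter Slc30a1 and the importer Slc39a2 had the larger falls, to 26.9% and 30.1% of the control mean. Slc39a14 and Slc39a7 stood at 47.5% and 46.9% of control. Among the 623 lower genes of the table, 186 had a greater fall than Slc30a1 and 223 than Slc39a2, against 504 for Slc39a7 and 524 for Slc39a14. The median log2 fold change of the 3 tested genes was -1.29, beside -0.68 over all tested genes and -1.04 over the tested genes that fell. The value over all tested genes mixes 397 that rose with 432 that fell, so the like comparison is with -1.04.

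**Figure D1:**
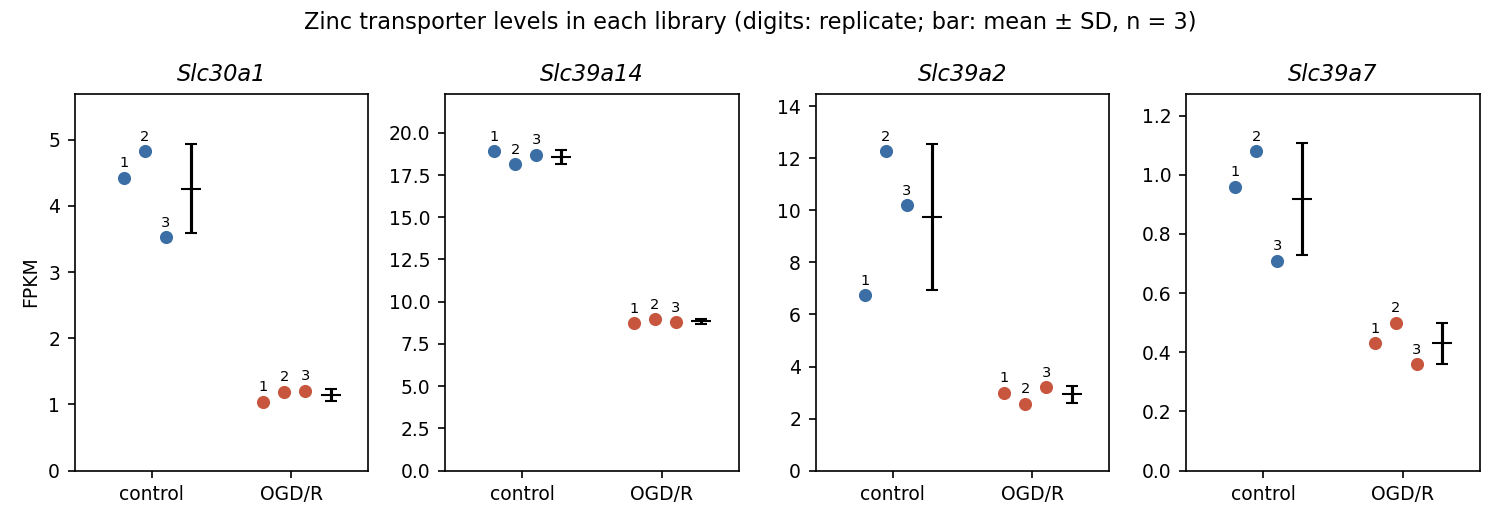
FPKM of the 4 zinc transporters, 1 panel per gene with its own linear axis from 0; points are libraries (blue control, red OGD/R, digits give the replicate) and bars are the mean ± SD (n = 3). In every panel the OGD/R points lie below the control points, with the tightest groups for Slc39a14 (18.1 to 18.9 against 8.72 to 8.98 FPKM) and the widest control group for Slc39a2 (6.74 to 12.3 FPKM).

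Slc30a1 encodes ZnT1, the zinc exporter of the plasma membrane. Its control libraries held 4.43, 4.83 and 3.53 FPKM in replicates 1 to 3, and its OGD/R libraries 1.04, 1.19 and 1.21 FPKM. The lowest control library stood 2.92-fold above the highest OGD/R library, and the OGD/R libraries were close to each other. These OGD/R values rest on only 44, 53 and 55 counted units, so their closeness is description only. The mean went from 4.26 ± 0.666 to 1.15 ± 0.0929 FPKM (SD, n = 3), a 3.72-fold fall, the largest of the 4 genes by this ratio. Exact 95% intervals for counting error overlapped, at 22% to 32% of control for Slc30a1 and 26% to 34% for Slc39a2. In limma the log2 fold change of Slc30a1 was -1.29 ± 0.13 (SE) at an adjusted p of 0.000176, and that of Slc39a2 was -1.42. The pseudocount of 1 shrinks the change of Slc30a1 more. With a pseudocount of 0.01 the log2 fold changes were -1.88 for Slc30a1 and -1.69 for Slc39a2. With voom on the counted units they were -1.87 and -1.70. Without any 1 library, the log2 ratio of Slc39a2 over Slc30a1, OGD/R minus control, ranged from -0.09 to 0.37. Which of these genes fell more is therefore not settled. The gene (ENSMUSG00000037434) spans 191906767 to 191913247 on the plus strand of chromosome 1 (GRCm38), with 5244 nt of exons.

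The promoter of Slc30a1 is shown because zinc-driven transcription of this gene is known to act through metal response elements. RefSeq windows (GRCm38.p6, 250 bases before the start and 50 after) were matched for 3 of the 4 genes, Slc39a14 not among them. The element's core was searched as TGCACNC and TGCGCNC on both strands. Either form is present in 25.7% of all 32851 windows. Slc30a1 had 2 matches, both on the reverse strand, at -43 to -37 and at 30 to 36, counted from the annotated RefSeq start as 0. Slc39a2 and Slc39a7 had none in their windows. The bases before the RefSeq start of Slc39a2 lie inside its first GENCODE exon, so the sequence before its GENCODE start was not searched. The ER stress response element, CCAAT and CCACG with 9 bases between (0.119% of windows), and the C/EBP-ATF element TGATGNAAT (0.965%) had no match in the 3 windows. Below are 120 bases before the GENCODE start of Slc30a1 (chr1:191906647-191906766, plus strand), with the first match in capitals, and the 121 bases between the RefSeq start of Slc39a7 and the GENCODE start of its divergent neighbour Rxrb (chr17:34031691-34031811, minus strand), which hold no match and so no capitals.
Slc30a1: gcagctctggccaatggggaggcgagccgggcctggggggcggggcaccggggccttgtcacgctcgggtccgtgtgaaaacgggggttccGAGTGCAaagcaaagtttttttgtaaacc
Slc39a7: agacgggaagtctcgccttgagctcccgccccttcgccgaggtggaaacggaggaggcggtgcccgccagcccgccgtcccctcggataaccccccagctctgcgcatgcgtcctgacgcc

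An antisense gene, 1700034H15Rik, starts inside the first exon of Slc30a1, and the stretch shown above lies in one of its introns. Its exons share 468 nt, or 8.92%, with those of Slc30a1. It was in the table as well, at 0.570 ± 0.185 FPKM in control and 0.143 ± 0.00577 FPKM in OGD/R (SD, n = 3), below the minimum for the test. Summed over libraries, it had 82 counted units in control and 22 in OGD/R, against 528 and 152 for Slc30a1. The sources used here do not say whether counting used strand, so reads of the shared 468 nt cannot be told apart.

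Slc39a14 encodes ZIP14, a plasma membrane importer of zinc that also carries iron and manganese and that responds to interleukin 6 in liver. It was the most abundant of the 4, at 18.9, 18.1 and 18.7 FPKM in control replicates 1 to 3 and 8.72, 8.98 and 8.80 FPKM in OGD/R. Within each group the highest library was 1.04-fold (control) and 1.03-fold (OGD/R) above the lowest. The mean went from 18.6 ± 0.408 to 8.83 ± 0.133 FPKM (SD, n = 3), a 2.10-fold fall. Its log2 fold change in limma was -0.99 ± 0.09 (SE), with an adjusted p of 0.000124. Scaling each library to its sum over the table gave Slc39a14 a log2 fold change of -0.59 (limma adjusted p = 0.00207). That sum runs over genes that differ between the groups, so this scaling is not independent of the group difference. On the log2 scale the SD of Slc39a14 over control libraries was 0.0302, and 3.40% of tested genes had a smaller one. Over OGD/R libraries this SD was 0.0195, with 2.11% smaller. With 10550 nt of exons it had 739 to 1577 counted units per library, the most of the 4 genes. Such numbers of units keep counting error low, and an SD of 3 values is imprecise. The small spread of Slc39a14 is therefore given as description and was not tested. It lies on chromosome 14 from 70303469 to 70351425 on the minus strand (ENSMUSG00000022094), and no other annotated gene overlaps it.

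Slc39a2 encodes ZIP2, a plasma membrane zinc importer. Its control libraries held 6.74, 12.3 and 10.2 FPKM in replicates 1 to 3, and its OGD/R libraries 3.00, 2.57 and 3.21 FPKM. Control replicate 1 was the low one, at 0.600 times the mean of the other control libraries, and still 2.10-fold above the highest OGD/R library. The mean went from 9.74 ± 2.80 to 2.93 ± 0.326 FPKM (SD, n = 3), a 3.33-fold fall. By limma this was a log2 fold change of -1.42 ± 0.21 (SE), adjusted p 0.000704. Without control replicate 1 the log2 fold change was -1.64. The SD over control libraries was 0.398 on the log2 scale, larger than in 82.0% of tested genes. The gene (ENSMUSG00000072572) lies on chromosome 14 from 51892889 to 51896745 on the plus strand, and 151 nt of its 3447 nt of exons are shared with the upstream gene Mettl17 on the same strand, which is not analysed here.

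Slc39a7 encodes ZIP7, which releases zinc from the endoplasmic reticulum and Golgi into the cytosol. It was the lowest of the 4, at 0.96, 1.08 and 0.71 FPKM in control replicates 1 to 3 and 0.43, 0.50 and 0.36 FPKM in OGD/R. The groups did not overlap, but the lowest control library was only 1.42-fold above the highest OGD/R library. The mean was 0.917 ± 0.189 FPKM in control and 0.430 ± 0.0700 FPKM in OGD/R (SD, n = 3), a ratio of 2.13, and the mean over all libraries was below the minimum for the test. With no minimum, limma gave a log2 fold change of -0.42 ± 0.10 SE (adjusted p = 0.00661), where 96.0% of 1228 genes passed in either direction and 48.0% with the lower value in OGD/R. These values rest on 19, 23 and 14 counted units in control and 9, 11 and 8 in OGD/R. Summed, 56 against 28 units, scaled to library size, put OGD/R at 46.8% of control, with an exact 95% interval of 28.6% to 74.9% that covers counting error only.

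The low level of Slc39a7 comes with an overlap in the annotation. The gene (ENSMUSG00000024327) lies on chromosome 17 from 34028269 to 34031682 on the minus strand, with 2584 nt of exons. Gm20427, annotated as a processed transcript on the same strand that extends past the 3′ end of Slc39a7, shares 2084 nt of these, or 80.7%, and leaves 500 nt to Slc39a7 alone. Strand cannot separate the pair. The sources used here do not say whether the authors' counting gave shared reads to either gene, to both or to neither. The level of Slc39a7 is therefore uncertain, and the part of the overlap in it was not tested. Gm20427 is not analysed here.

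**Figure D2:**
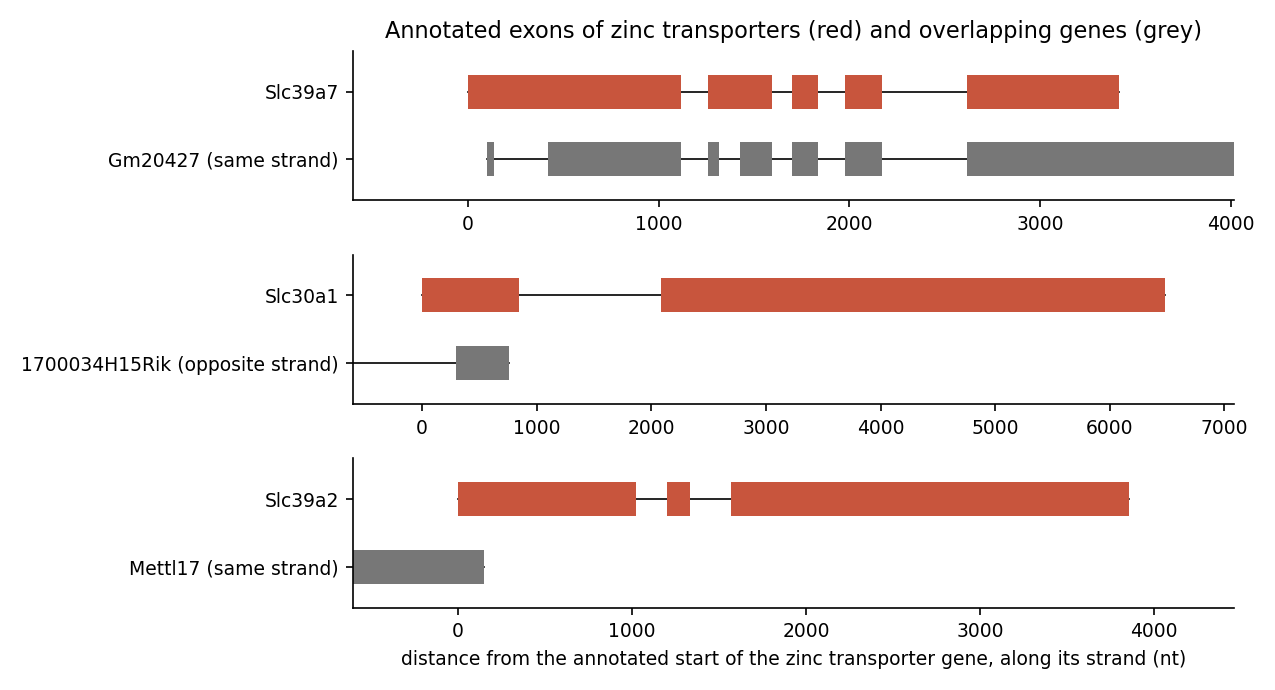
Annotated exons (boxes) of Slc39a7, Slc30a1 and Slc39a2 in red and of the gene that overlaps each in grey, drawn to scale along the strand of the zinc transporter, with distance in nt from its annotated start on the horizontal axis; grey genes are clipped at the panel edges. Gm20427 covers 80.7% of the Slc39a7 exons, while the overlaps of Slc30a1 (8.92%) and Slc39a2 (4.38%) sit near their starts.

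The order of levels was the same in all 6 libraries: Slc39a14 was highest, followed by Slc39a2, Slc30a1 and Slc39a7. In control, the ranges of neighbours in this order did not overlap, and the same held in OGD/R. Of the 6 ratios between pairs of these genes, 2 had groups that did not overlap. With 3 against 3 libraries the exact test used could pass none of them, whatever the values. Slc39a14 stood at 4.27, 3.75 and 5.30 times Slc30a1 in control replicates 1 to 3, and at 8.39, 7.55 and 7.27 times in OGD/R, so every OGD/R library had the higher ratio of this importer to the exporter. The mean ratio was 4.44 ± 0.786 in control and 7.74 ± 0.579 in OGD/R (SD, n = 3), a log2 difference of 0.81, and of 0.70 to 0.95 without any 1 library. Slc30a1 over Slc39a7 was lower in OGD/R, at 4.69 ± 0.257 in control and 2.72 ± 0.556 in OGD/R, and rests on the uncertain level of Slc39a7. In an exact two-sided permutation test these ratios gave p = 0.1 each, the smallest that 3 against 3 libraries allow, and 0.3 after Benjamini-Hochberg adjustment over the 6 pairs.

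The other 4 pairs overlapped between groups. Slc39a14 over Slc39a2 was 2.04 ± 0.689 in control and 3.05 ± 0.396 in OGD/R (SD, n = 3; exact permutation p = 0.2). Slc39a2 over Slc30a1 was 2.32 ± 0.710 and 2.57 ± 0.370 (exact permutation p = 0.7), and Slc39a14 over Slc39a7 was 20.9 ± 4.89 and 20.9 ± 3.29 (exact permutation p = 1). Slc39a2 over Slc39a7 was 10.9 ± 3.69 and 7.01 ± 1.89 (exact permutation p = 0.2). In control replicate 1, where Slc39a2 was low, Slc39a14 over Slc39a2 was 2.81, against 1.48 and 1.83 in the other control libraries. Without that library the log2 difference of Slc39a2 over Slc30a1 went from 0.19 to -0.09, and that of Slc39a14 over Slc39a7, 0.01 with all libraries, ranged from -0.14 to 0.19 without any 1 library. Ratios within a library do not depend on how libraries were scaled.

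**Figure D3:**
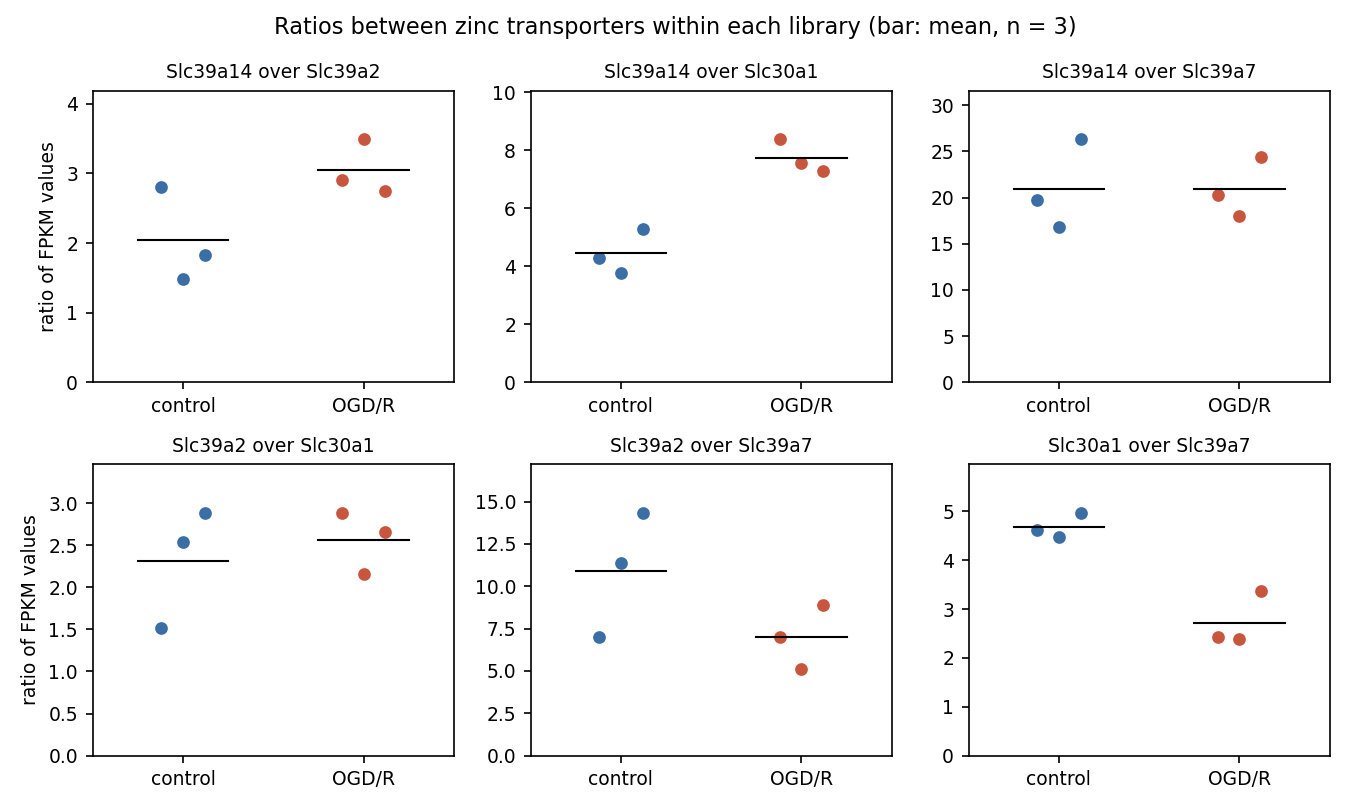
Ratio of FPKM values between each pair of zinc transporters within each library, in 6 panels with linear axes from 0; points are libraries (blue control, red OGD/R, replicates 1 to 3 from left to right) and bars are means (n = 3). The groups are apart for Slc39a14 over Slc30a1 (3.75 to 5.30 against 7.27 to 8.39) and for Slc30a1 over Slc39a7 (4.47 to 4.97 against 2.38 to 3.36), and overlap in the other 4 panels.

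Of 12 genes that bind or sense zinc, Mt2 alone was in the table. Mt2 encodes a metallothionein, a small protein that buffers zinc and copper and whose gene is a main target of Mtf1. It held 193, 700 and 666 FPKM in control replicates 1 to 3 and 107, 118 and 213 FPKM in OGD/R. Control replicate 1 lay below OGD/R replicate 3, so the groups overlapped. The mean went from 520 ± 283 to 146 ± 58.0 FPKM (SD, n = 3). Its limma log2 fold change was -1.68 ± 0.54 (SE), adjusted p 0.0207. This call was lost when any of control replicates 2 and 3 or OGD/R replicates 1 and 2 was left out (limma adjusted p = 0.0613, 0.0656, 0.0673 and 0.0612), and without control replicate 1 the log2 fold change was -2.29 (adjusted p = 0.00103). Mt1 and Mtf1 are not analysed here.

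Mt2 and Slc39a2 were both low in control replicate 1, at 0.283 and 0.600 times the mean of the other control libraries. Slc30a1, Slc39a14 and Slc39a7 were not, at 1.06, 1.03 and 1.07 times. Over the tested genes that fell the median of this quotient was 0.843, and 305 of 432 lay below 1. OGD/R replicate 3 was at 1.89 times the mean of the other OGD/R libraries for Mt2 and at 1.15 times for Slc39a2. The part of this library difference in the fall of Slc39a2 was not tested, beyond the larger fall without control replicate 1 given above.

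**Figure D4:**
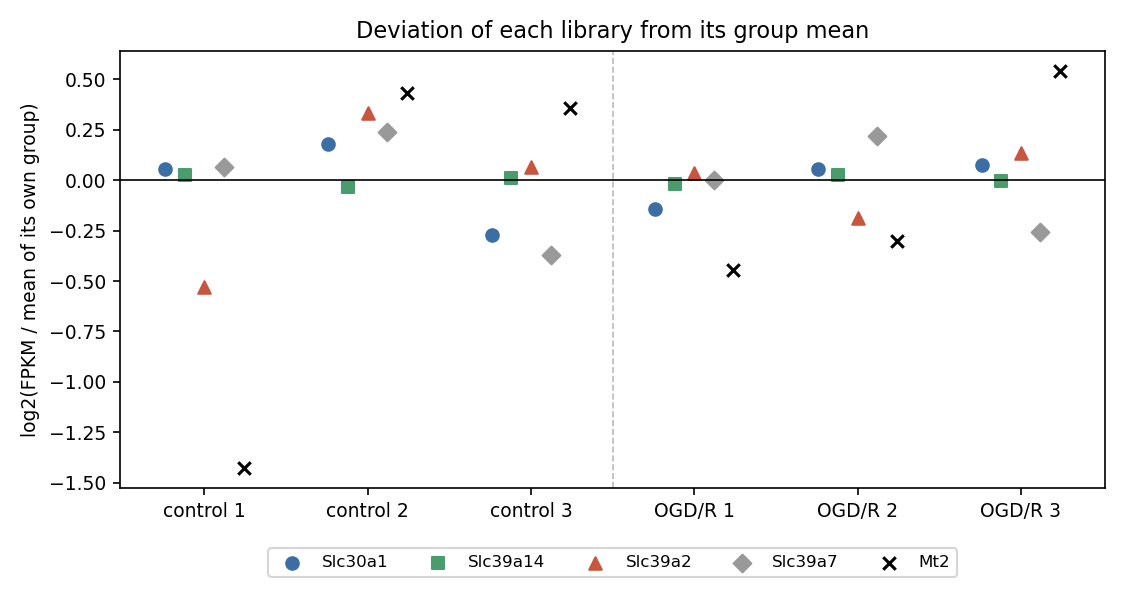
Deviation of each library from the mean of its own group, as log2(FPKM / group mean), for the 4 zinc transporters and Mt2; libraries are on the horizontal axis and the dashed line parts control from OGD/R. In control replicate 1, Mt2 and Slc39a2 lie below the other genes, while Slc39a14 stays near 0 in all 6 libraries.

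Zinc transporters were set beside the other carriers of the table, whose symbols also start with Slc. There were 16 of these, of which 8 were tested, 6 fell and 2 rose, with a median log2 fold change of -1.10. That all 8 passed is near the share over all 852 tested genes, 97.3% in either direction and 50.7% with the lower value in OGD/R. Slc20a1, a phosphate carrier, had the largest fall at -1.74, followed by Slc35b1, a nucleotide carrier of the endoplasmic reticulum membrane, at -1.34, and the glycine carrier Slc6a9 at -1.29 (limma adjusted p = 4.47e-05, 0.000261 and 9.94e-05). Those that rose were the cystine carrier Slc7a11 and the sodium-calcium exchanger Slc8a1, by 1.00 and 0.80 on the log2 scale. On this scale the 3 tested zinc transporters, at -1.42, -1.29 and -0.99, lay between the largest and smallest falls of these carriers. By the ratio of mean FPKM values, which no pseudocount shrinks, Slc30a1 was 3.72-fold lower and Slc20a1 3.41-fold lower. The place of Slc30a1 among the tested carriers therefore depends on the scale. Among the untested carriers, Slc1a1, Slc18a1, Slc41a3 and Slc9a9 had greater falls by this ratio, at 6.61-fold, 5.11-fold, 4.30-fold and 3.97-fold. Of the rest, Slc25a29 had a smaller fall, and Slc26a9, Slc35f1 and Slc38a4 had the higher mean in OGD/R.

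**Figure D5:**
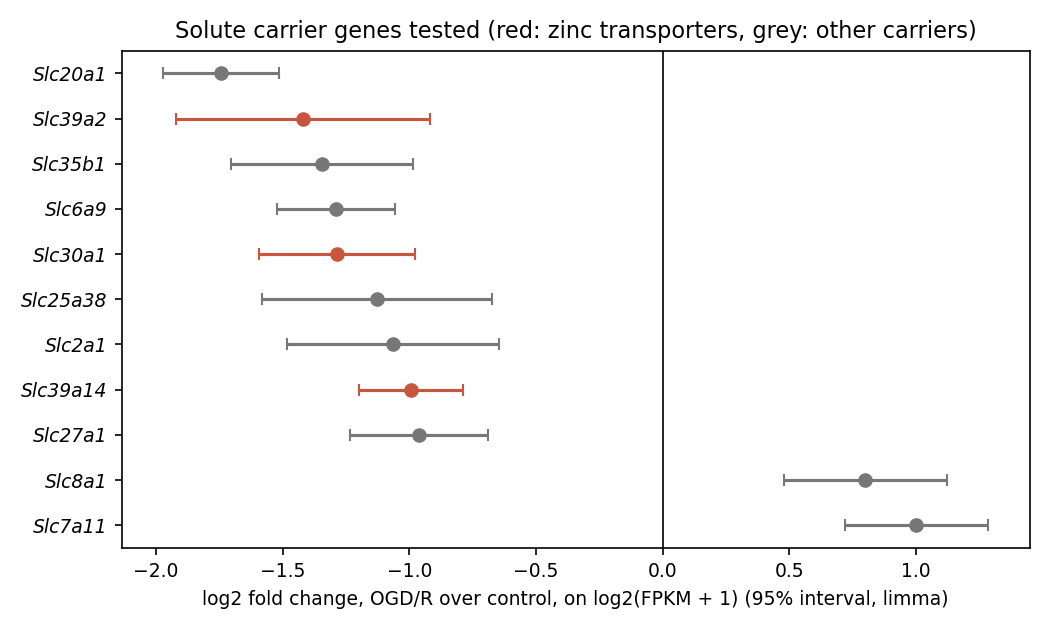
Log2 fold change of OGD/R over control on the log2(FPKM + 1) scale for the 11 solute carrier genes tested, with 95% intervals from limma; zinc transporters are red and other carriers grey. Slc39a2, Slc30a1 and Slc39a14 lie at -1.42, -1.29 and -0.99 and the other carriers that fell at -1.74 to -0.96 on this scale, which shrinks Slc30a1 most of the 3 zinc transporters, and Slc7a11 and Slc8a1 lie above 0.

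ZIP7 works at the endoplasmic reticulum, and Slc39a14 is known to be induced by stress of this compartment in liver, so genes of the endoplasmic reticulum stress response were set beside the zinc transporters. Of 40 listed genes, 23 were in the table and tested, and all 23 fell, with a median log2 fold change of -2.10. Of all 852 tested genes, 97.3% passed in either direction and 50.7% passed with the lower value in OGD/R. The 23 listed genes ranged from -4.46 in Ddit3 to -1.04 in Edem1. The zinc transporters are less abundant than most of these genes, and the pseudocount shrinks them more. By the log2 ratio of mean FPKM values, Slc30a1 (-1.90), Slc39a2 (-1.73) and Slc39a14 (-1.07) all lay between Ddit3 (-4.61) and Edem1 (-1.05). All were nearer to Edem1, the smallest fall of the list, than to Ddit3. On the log2(FPKM + 1) scale, Slc39a14 at -0.99 fell less than all 23 genes. In 19 of the 23, control replicate 1 was below the mean of the other control libraries, with a median quotient of 0.843. The list was chosen with its fall in these libraries known and is not independent evidence of a direction.

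For each zinc transporter, the 3 genes with the most similar profile were taken as those with the smallest root mean square difference in log2(FPKM + 1) over the 6 libraries, after centring each gene on its mean. The search covered the tested genes without symbols that start with Gm and a digit or end in Rik or -ps, clone names and IDs, which left 634 genes (635 for Slc39a7) of 852, and the nearest genes are nearest among these. Slc39a2 was closest to Dnajb11, a co-chaperone of the endoplasmic reticulum and a member of the stress list, at a difference of 0.0698. The median over the lower genes compared was 0.335, and a gene picked as the nearest lies below it by construction. Dnajb11 was likewise low in control replicate 1, at 0.634 times the mean of the other control libraries, and went from 60.6 ± 14.7 to 22.0 ± 1.92 FPKM (SD, n = 3). Next for Slc39a2 were Cfap157 and the small heat shock protein gene Hspb7, at 0.0978 and 0.104. Slc30a1 was closest to Alg12, a mannosyltransferase of protein glycosylation, the sphingosine kinase gene Sphk2 and the prostacyclin receptor gene Ptgir, at 0.0905, 0.0935 and 0.105. Slc39a14 was closest to Cd47, the surface signal that restrains phagocytosis, at 0.0469, and to Dnmbp and Hhipl1 at 0.0484 and 0.0485. For Slc39a7 the nearest were Evi5l, the purine receptor gene P2ry13 and Wdr45, at 0.109, 0.123 and 0.135. No gene was among the nearest of more than 1 zinc transporter. These differences describe 6 libraries in 2 groups and carry no test.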

How the data were processed

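The authors deposited a single table of FPKM values with 2 decimals for the 6 samples; per the file headers the unit is FPKM, and per the submitters' processing notes the genome build was GRCm38. The sources used here do not give the aligner, counter, annotation or strand setting. Exon lengths and positions came from GENCODE M21 on GRCm38, which matched 1227 of 1228 gene IDs. Library sizes were sought at which low values (below 15 units) fell on whole numbers of units (within rounding plus 0.03 units). This held for 97.2% to 100% of such values per library, beside 27.4% to 49.3% at the best other size compared and 18.8% to 20.2% by chance. The smallest size that fitted well was taken. Larger multiples of it were not compared, so it is not shown to be the only size that fits. For long or abundant genes rounding is too coarse for this check, as for Slc39a14, and their units are estimates. A unit may or may not be a read pair.

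The whole table was tested with limma 3.58.1 in R 4.3.3 (group as the only factor, eBayes with trend, two-sided) on log2(FPKM + 1), for genes with a mean of at least 1 FPKM, with Benjamini-Hochberg adjustment and a threshold of 0.05. The limma and unit steps were tested on simulated data. Ratios used exact permutation tests in Python 3.11.15 with scipy 1.17.1. Besides the zinc transporters and their 3 most similar genes each, up to 6 genes per list with the largest change past the threshold could be named, and 3 rises and 3 falls among other carriers. The members and lists were chosen with earlier results of these data known, and the motifs after the promoters were seen. Alternatives covered the pseudocount, filter, scaling, eBayes settings, a replicate block, voom on units and each library left out.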

Additional observations from a re-analysis of the deposited data

How the results depend on the processing

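The number of zinc transporters called was 3, and 4 with no minimum, 2 with a minimum of 5 FPKM and 3 in the other settings, each library left out included. Slc30a1, Slc39a2 and Slc39a14 changed neither direction nor call in any setting that included them; Slc30a1 was not tested at a minimum of 5 FPKM, and Slc39a7 was tested only with no minimum. Log2 fold changes without any 1 library were -1.39 to -1.21 for Slc30a1, -1.64 to -1.25 for Slc39a2 and -1.01 to -0.98 for Slc39a14. Scaling each library to its sum over the table moved the median of all tested genes by 0.27 and gave -1.06 for Slc39a2 and -0.59 for Slc39a14, with Slc30a1 between. The genes in that sum differ between the groups, so this scaling is not independent of the group difference. With a minimum of 5 FPKM, 409 genes of the table were called instead of 829, since 423 were tested instead of 852. The replicate block gave 835 genes and 3 zinc transporters and changed none of their calls. Libraries that share a number had deviations from their group means correlated by 0.428, -0.349 and 0.375. Deviations within a group of 3 libraries are tied to each other, so these correlations cannot decide whether the numbers pair the samples. The settings for Mt2 and for the ratios were added after seeing the data.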

Other observations

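Other metal and inflammation genes of the table were few. Their calls stand beside the 97.3% of all 852 tested genes that passed, 50.7% with the lower value in OGD/R. Of 27 genes of iron and manganese handling, 2 were in the table and both fell: Cp, the copper-dependent ferroxidase ceruloplasmin, at 2.11 ± 0.0231 FPKM in control and 0.727 ± 0.238 FPKM in OGD/R (SD, n = 3; limma adjusted p = 0.000809), and Lcn2, which binds iron-loaded siderophores, at 5.28 ± 2.52 and 0.163 ± 0.0874 FPKM (limma adjusted p = 0.000562). None of 10 genes of copper transport was in the table. Of 17 genes of interleukin 6 and NF-kB inflammation, 5 were in the table and 2 were tested. Of these, both fell, Ptgs2 (cyclooxygenase-2) with a log2 fold change of -1.55 and Nos2 (inducible nitric oxide synthase) with -0.95 (limma adjusted p = 7.87e-05 and 0.00425). Il6, which is known to induce Slc39a14 in liver, was below the minimum for the test, at 0.97, 1.45 and 1.57 FPKM in control replicates 1 to 3 and 0.10, 0.34 and 0.10 FPKM in OGD/R. Il1b, also untested, was the opposite, listed at 0, 0 and 0.28 FPKM in control and at 0.39, 0.93 and 0.67 FPKM in OGD/R. Saa3, untested as well, had overlapping groups, at 0.80, 1.68 and 1.56 FPKM in control and 0.29, 0.23 and 1.06 FPKM in OGD/R.

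Of 21 markers of other cell types, 3 were in the table (Vwf, Tubb3 and Cspg4), all without overlap between groups and lower in OGD/R. Groups did not overlap in 94.9% of the 1228 genes of the table, and in 46.5% all OGD/R values were the lower ones. Vwf alone was tested, with a log2 fold change of -0.94. The summed level of the 3 markers was 4.01 to 5.11 FPKM over the control libraries and 1.47 to 1.97 FPKM over the OGD/R libraries. Tubb3 and Cspg4 were listed at 0 in OGD/R replicate 2. Their part in the zinc transporter values was not tested.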
